A study of Neurospora crassa with 11 samples.

Results

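The 7 conidiation genes described here are eas (NCU08457), con-6 (NCU08769), con-8 (NCU09235), con-10 (NCU07325), con-13 (NCU07324), fl (NCU08726) and ccg-1 (NCU03753) of the filamentous fungus Neurospora crassa. They were chosen by locus name from the 9758 genes counted, with earlier results of these data known. All 7 passed the filter on low counts, which left 8557 genes to test. RNA of whole fungus was sequenced in 11 libraries, from cultures that had first spent 16 h on sucrose in Vogel's medium and were then transferred. The sources used here do not state the time after transfer. The wild type was strain FGSC2489 (OR74A), on xylan (3 libraries). The deletion strain carried deltaxlr-1::HygR in FGSC2489, so that the gene of the transcription factor XLR-1 was replaced by a hygromycin marker, and it was also on xylan (4 libraries). The A828V strain carried that same deletion and an xlr-1 copy with the A828V change at the his-3 locus, his-3::p_ccg1::xlr-1-A828V, labelled mat a. It was sampled without a carbon source (3 libraries) and on sucrose (1 library). The copy stood behind the promoter of ccg-1, itself one of the 7 genes. Wild type without carbon entered only through fold changes in the authors' deposited comparison tables. The A828V and wild-type libraries differ in strain and in medium at once, so the effects of the allele and of the medium cannot be told apart between them.

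Conidiation is the asexual sporulation of Neurospora. Hyphae send up aerial branches that bud into chains of orange spores, the macroconidia, and loss of the carbon source, drying, air and light are classical triggers. The products of the 7 genes act at different places. fl encodes FLUFFY, a zinc-cluster transcription factor needed for the budding of conidiophores. eas, also named ccg-2 and bli-7, encodes the hydrophobin whose rodlets make the spore surface water-repellent. con-6, con-8, con-10 and con-13 belong to a set of genes isolated for RNA that accumulates during conidiation. ccg-1 was isolated as a clock-controlled gene and as a glucose-repressible gene, and its promoter is a common tool to drive transgenes in this fungus.

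The genes lie apart in the genome, with 1 exception. Positions, 1-based, are the same in the deposited tables and in RefSeq (assembly NC12). eas lies on chromosome II from 3570905 to 3572798 and fl on the same chromosome from 3805777 to 3809265. con-8 lies on chromosome I (9463799 to 9465488), con-6 on chromosome III (5205042 to 5205927) and ccg-1 on chromosome V (2302672 to 2303443). con-10 (4364944 to 4365763) and con-13 (4367319 to 4368460) are neighbours on chromosome IV with 1555 bases between them. The sources used here do not state whether the reads were stranded.

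Counts assigned to genes came to 10317390 to 18927605 per library. The deleted gene was checked first. xlr-1 (NCU06971) stood at 112 to 158 CPM (counts scaled by library size) in wild type and at 3.28 to 11.8 CPM in the deletion libraries. The labels give the A828V strain mating type a, yet matA-1, a gene of mating type A, had 107 to 143 counts in its libraries without carbon and 12 in the one on sucrose. It had 91 to 125 counts in wild type and 0 in each deletion library. Libraries of the xylan groups were less alike than those of A828V without carbon, with correlations of log2 CPM of 0.880 to 0.971 against 0.986 to 0.993.

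Among the groups with libraries here, which leave out wild type without carbon, all 7 genes had their highest mean in A828V without carbon. con-6, con-10 and ccg-1 had their lowest value of all 11 libraries in the A828V library on sucrose. Together the 7 genes took 3.75% to 4.67% of all gene counts in the A828V libraries without carbon. They took 0.287% to 0.680% in wild type, 0.592% to 1.55% in the deletion strain and 0.104% on sucrose. Most of these reads came from eas and ccg-1. In bulk RNA, more sporulating hyphae and more RNA per hypha cannot be told apart.

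The hydrophobin gene eas stood at 16714, 17663 and 19834 CPM in the A828V libraries without carbon against 454 CPM on sucrose. Wild type on xylan gave 120, 389 and 2221 CPM, and the deletion strain gave 147, 1710, 1080 and 857 CPM. The starved A828V libraries lay far above all others and close together, while the wild-type libraries spanned a factor of 18.6 and the deletion libraries one of 11.6. In each xylan group the library numbered 1 was the lowest, and the sucrose library lay inside the wild-type range. Per length, eas reached 14201, 14449 and 16547 FPKM (fragments scaled by gene length and depth) in the starved A828V libraries, where it ranked 2nd, 3rd and 2nd among all genes.

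con-6 showed the widest range. It stood at 1013, 1215 and 1328 CPM in A828V without carbon and at 2.29 CPM, or 26 counts, on sucrose. The wild-type libraries held 6.90, 3.37 and 5.10 CPM and the deletion libraries 33.5, 12.97, 3.88 and 13.3 CPM. Its FPKM rank moved from between 4890 and 6247 in wild type to between 26 and 31 in the starved A828V libraries. The order of the group means was A828V without carbon, deletion, wild type and sucrose, and only the deletion and wild-type libraries overlapped.

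con-8 stood at 1918, 1613 and 2047 CPM in A828V without carbon and at 93.0 CPM on sucrose. In wild type it gave 62.6, 210 and 152 CPM, and in the deletion strain 147, 232, 200 and 272 CPM. The starved libraries again lay above the rest, and the other 2 groups and the sucrose library could not be separated, since the sucrose value fell within the wild-type range and wild type overlapped the deletion strain.

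con-10 departed from this picture. In the starved A828V libraries it stood at 46.9, 38.1 and 55.9 CPM, and on sucrose at 2.99 CPM, or 34 counts. Wild type gave 19.9, 10.7 and 14.4 CPM, while the deletion strain gave 59.1, 54.6, 19.8 and 10.9 CPM. The deletion libraries 1 and 2 were as high as starved A828V, and libraries 3 and 4 were as low as wild type. con-13, its neighbour, was near the limit of detection, with 41, 51 and 57 counts in starved A828V, 11 on sucrose, 4, 15 and 5 in wild type and 24, 18, 13 and 0 in the deletion strain. The 0 in deletion library 4 allows up to 0.291 CPM, against a floor of 3 counts. As for con-10, deletion libraries 1 and 2 held the highest counts of con-13 in that group. The limit covers counting error only.

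The regulator gene fl varied least. It stood at 113, 167 and 102 CPM in starved A828V and 56.6 CPM on sucrose. The wild-type libraries held 19.2, 32.0 and 32.8 CPM and the deletion libraries 26.2, 37.0, 28.5 and 17.8 CPM. Sucrose ranked second here, above every library on xylan, and wild type and deletion strain overlapped.

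ccg-1 was, with eas, one of the 2 most abundant of the 7. It stood at 16614, 12499 and 17350 CPM in starved A828V and 683 CPM on sucrose. Wild type held 2808, 3565 and 5384 CPM, and the deletion libraries held 7659, 12492, 4601 and 6297 CPM. The lowest starved library, at 12499 CPM, lay just above deletion library 2 at 12492 CPM, and the deletion strain overlapped wild type. Per length, ccg-1 was the first-ranked gene of the whole transcriptome in 8 of 11 libraries and ranked 87th on sucrose. In starved A828V it held 40220 to 52157 FPKM, and on sucrose 1305 FPKM.

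**Figure D1:**
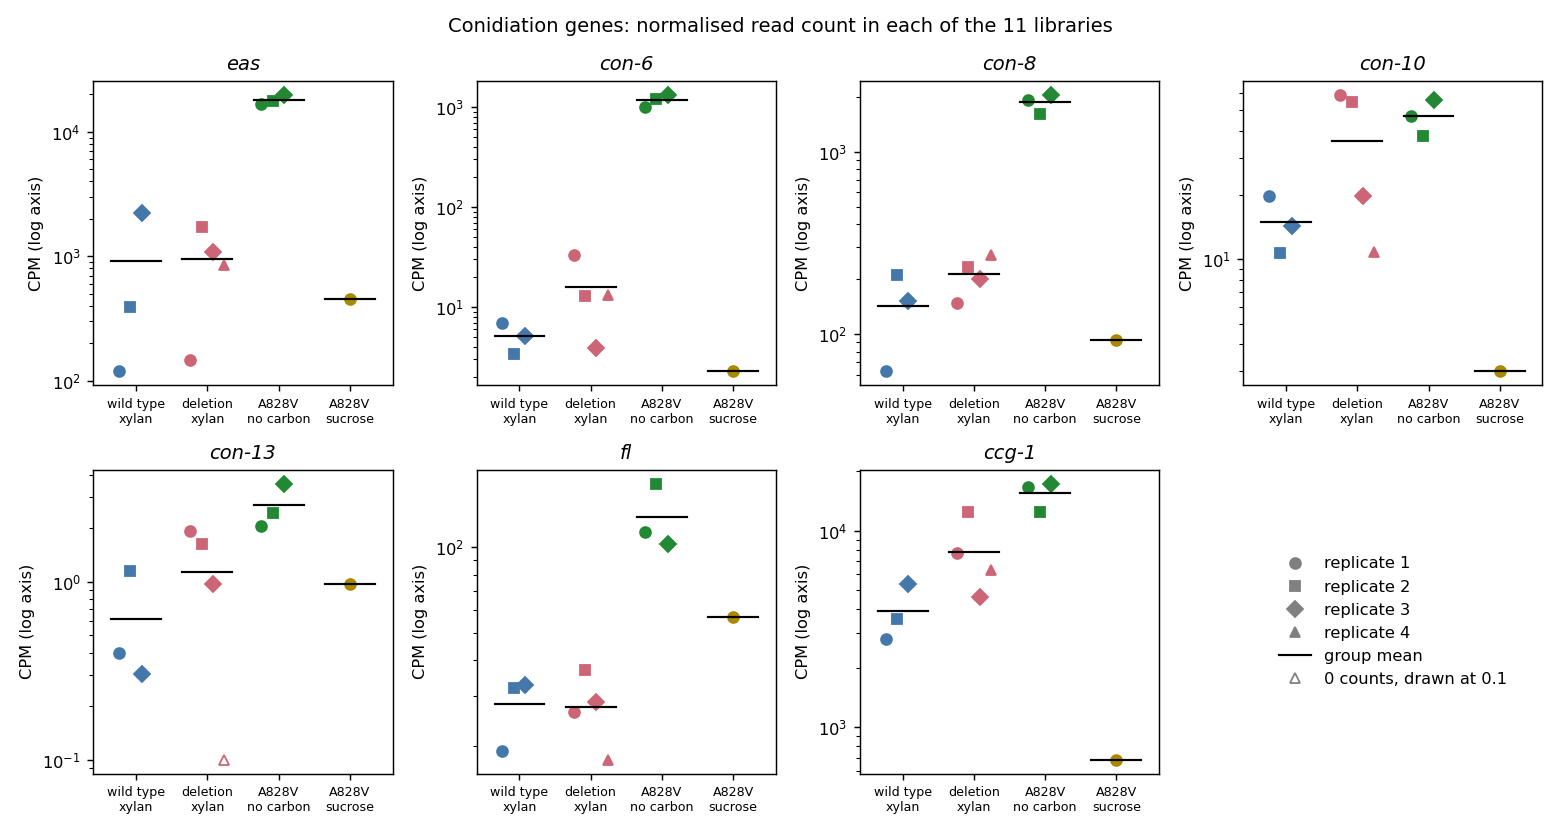
Normalised read count (CPM, log axis) of each of the 7 genes in the 11 libraries, by group; symbols mark the replicate number, bars the group mean, and the open triangle a library with 0 counts. The A828V libraries without carbon are the highest for eas, con-6, con-8, con-13, fl and ccg-1, while for con-10 deletion libraries 1 and 2 reach 59.1 and 54.6 CPM.

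The comparison of the A828V strain without carbon and on sucrose asked how the genes differ between media in 1 strain. con-6, con-8, con-10 and ccg-1 were higher without carbon, by 518-fold, 19.99-fold, 15.7-fold and 22.7-fold on mean CPM. These were 4 of 7 genes, where 8.39% of all genes tested were called higher, and 0 of 7 were called lower, where 10.4% were (edgeR, with 6 of 7 at an unadjusted p under 0.05, all higher, against 34.3% of all genes in either direction, and 0 called lower by DESeq2 or limma). The log2 fold changes were 9.01 for con-6 (SE 1.41, adjusted p = 0.00406) and 4.32 for con-8 (SE 0.75, adjusted p = 0.00549) by edgeR's quasi-likelihood F-test after Benjamini-Hochberg correction, the test behind every edgeR value here. In edgeR they were 4.50 for ccg-1 (SE 0.78, adjusted p = 0.00552) and 3.97 for con-10 (SE 1.03, adjusted p = 0.0262). The call of con-10 was lost without A828V library 1 (3.97, adjusted p = 0.0575, edgeR) or 3 (3.83, adjusted p = 0.0599).

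eas was 39.8-fold higher on mean CPM but was not called (log2 fold change 5.31, SE 1.92, edgeR adjusted p = 0.0794). The fit shares 1 estimate of spread over all groups, and eas varied most within the groups on xylan. With the A828V libraries alone eas was called (5.29, edgeR adjusted p = 1.57e-05), as were fl and con-13, in a fit that called 31.6% of all genes higher and 30.6% lower. limma on FPKM called it too (5.87, adjusted p = 0.0152), and DESeq2 gave it no adjusted p. For fl, with a mean of 128 ± 34.9 CPM (SD, n = 3) when starved, the difference from sucrose was 1.17 with a 95% interval of 0.10 to 2.25 (edgeR adjusted p = 0.117). For con-13 the interval was -1.58 to 4.51. The sucrose group has 1 library, assumed in the fit to vary like the others.

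Next, starved A828V was set against wild type on xylan, a contrast of strain and medium together. Here eas, con-6, con-8, fl and ccg-1 were higher in starved A828V, 5 of 7 genes, where 9.29% of all genes tested were. None of the 7 was called lower by edgeR, DESeq2 or limma, where edgeR called 11.5% of all genes lower, and all 7 had an unadjusted p under 0.05 toward higher values, as 36.8% of all genes had in either direction. con-6 rose from 5.12 ± 1.77 to 1185 ± 159 CPM (SD, n = 3 each), 231-fold, with a log2 fold change of 7.86 (SE 0.79, edgeR adjusted p = 0.00083). con-8 rose from 142 ± 74.5 to 1859 ± 223 CPM (3.71, SE 0.45, edgeR adjusted p = 0.00128). fl rose from 28.0 ± 7.63 to 128 ± 34.9 CPM, 4.56-fold (2.19, SE 0.33, edgeR adjusted p = 0.00329).

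ccg-1 rose from 3919 ± 1324 to 15490 ± 2614 CPM (1.98, SE 0.43, edgeR adjusted p = 0.0122), a call lost without A828V library 3 (1.89, adjusted p = 0.0518). eas rose from 910 ± 1143 to 18070 ± 1599 CPM (4.31, SE 1.10, edgeR adjusted p = 0.0231). Its call was lost without wild-type library 2 (3.86, edgeR adjusted p = 0.0696) or A828V library 1 (4.37, 0.0615), 2 (4.33, 0.0557) or 3 (4.24, 0.0658), and DESeq2 gave it no adjusted p. Without wild-type library 1, the lowest for eas, the log2 fold change was 3.79, and without library 3 it was 6.10. con-10 missed the threshold at 1.65 (SE 0.57, edgeR adjusted p = 0.0631), as did con-13 at 2.11 (SE 0.93, adjusted p = 0.129), though no library of either group overlapped. Both were called with the compared groups alone (con-10 at 1.65, edgeR adjusted p = 0.00631, and con-13 at 2.11, adjusted p = 0.0208), in a fit that called 18% of all genes higher, against 9.29%.

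Starved A828V was also set against the deletion strain on xylan. The 2 strains share the deletion of the native xlr-1 and differ in the A828V copy, the medium and the reads of matA-1, which the deletion libraries lack, so these cannot be told apart. eas, con-6, con-8 and fl were higher in starved A828V, 4 of 7 genes, where 4.90% of all genes tested were. None was called lower by edgeR, DESeq2 or limma, where edgeR called 3.80% of all genes lower, and 5 of 7 had an unadjusted p under 0.05, all toward higher values, against 28.1% of all genes in either direction. con-6 stood 74.6-fold higher (log2 fold change 6.22, SE 0.64, edgeR adjusted p = 0.000403), con-8 8.73-fold (3.13, SE 0.39, adjusted p = 0.00132) and fl 4.66-fold (2.22, SE 0.30, adjusted p = 0.00225). eas stood 19.0-fold higher (4.25, SE 0.98, edgeR adjusted p = 0.0261). That call was lost without A828V library 1 (4.31), 2 (4.27) or 3 (4.18) or deletion library 3 (4.32) or 4 (4.17), with adjusted p between 0.0569 and 0.0849, and DESeq2 gave it no adjusted p.

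con-10 and ccg-1 were the genes on which these strains lay closest. con-10 had a log2 fold change of 0.38 with a 95% interval of -0.76 to 1.52 (edgeR adjusted p = 0.655), and the groups overlapped. ccg-1 had 0.997 with an interval of 0.14 to 1.85 (edgeR adjusted p = 0.126), which was called without deletion library 2 (1.32, adjusted p = 0.043) and by DESeq2 (1.01, adjusted p = 0.0473). These contrasts share the starved A828V libraries, so their values stand side by side and are not independent of each other.

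**Figure D2:**
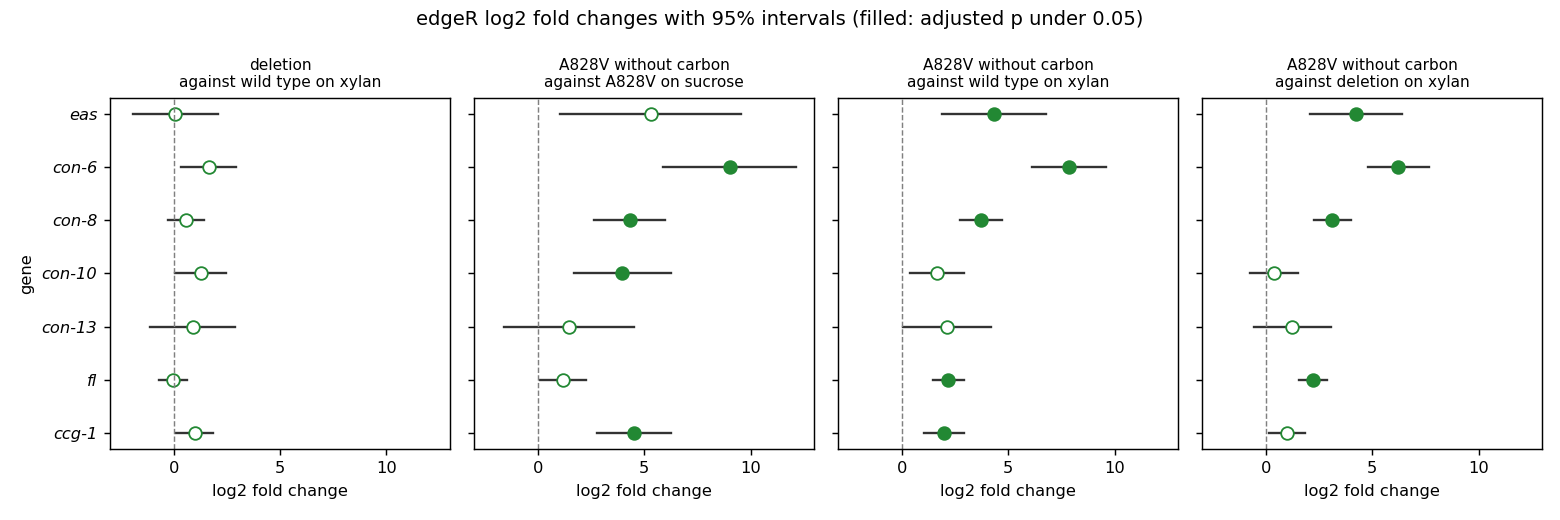
log2 fold changes of the 7 genes in the 4 comparisons, from edgeR on counts, with 95% intervals as bars; filled points have a Benjamini-Hochberg adjusted p under 0.05. con-6 has the highest value in each panel, from 1.64 between deletion and wild type to 9.01 between A828V media, and no point is filled in the first panel.

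The comparison of the deletion strain with wild type, both on xylan, asked how these genes differ when xlr-1 is missing. Since the deletion libraries held no matA-1 read, a difference in mating type and the loss of xlr-1 cannot be told apart. None of the 7 was called in either direction by edgeR, DESeq2 or limma on FPKM, where edgeR called 0.0234% of all genes higher and 0.573% lower. DESeq2, which gave eas no adjusted p, called 2.01% of all genes higher and 2.66% lower. con-6, con-10 and ccg-1 had an unadjusted p under 0.05, all toward higher values, 3 of 7 against 14.3% of all genes in either direction. con-10 gave means of 36.1 ± 24.3 CPM (SD, n = 4) without xlr-1 and 15.01 ± 4.62 CPM (SD, n = 3) with it (log2 fold change 1.27, SE 0.54, edgeR adjusted p = 0.316). ccg-1 gave 7762 ± 3392 and 3919 ± 1324 CPM (0.99, SE 0.40, edgeR adjusted p = 0.301), and con-6 gave 15.9 ± 12.5 and 5.12 ± 1.77 CPM (1.64, SE 0.59, edgeR adjusted p = 0.253). fl differed least, with 27.4 ± 7.88 and 28.0 ± 7.63 CPM and an interval of -0.70 to 0.63 on the log2 scale, and its sign changed with limma on FPKM, with the pairs as a block and without some single libraries. eas had the widest interval, -1.94 to 2.06, with 949 ± 645 CPM in the deletion strain and 910 ± 1143 CPM in wild type.

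Across all genes, the wild-type and deletion libraries numbered 1 deviated from their group means alike (r of 0.64). Numbers 2 and 3 gave only 0.26 and 0.25. Some libraries with different numbers correlated about as much (up to 0.247, against 0.252 in the third pair). These values do not show that 2 belongs with 2 and 3 with 3, so the pairs below are read by number only. In the pairs numbered 1, 2 and 3, con-10 was 2.97-fold, 5.09-fold and 1.37-fold higher in the deletion strain. con-8 (2.35-fold, 1.10-fold and 1.32-fold) and con-13 (4.84-fold, 1.42-fold and 3.20-fold) were also higher in 3 of 3 pairs. The con-13 folds rest on 24, 18 and 13 counts over 4, 15 and 5. Deletion library 4, which has no partner, was the lowest of its group for con-13 (0 counts) and con-10. Its con-10 value, 10.9 CPM, lay inside the wild-type range, while for con-8 it was the highest of its group (272 CPM). For con-6, ccg-1, eas and fl the third pair went the other way, at 0.761-fold, 0.855-fold, 0.486-fold and 0.868-fold. The highest deletion value of eas, fl and ccg-1 came from library 2, the library with the largest share of reads without a unique alignment (22.7% of entries, against 1.62% to 12.2% in the others). The part of that share in the result was not tested.

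The authors' deposited tables add wild type without carbon. They set it against wild type on xylan, the same strain in 2 media, and against A828V without carbon, 2 strains in the same medium. Their fold changes and adjusted p stand as deposited, with no error per library. Each table was scaled separately, and both share the wild-type libraries without carbon.

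In the authors' deposited table for wild type, con-6, con-10, con-8 and eas were called higher without carbon than on xylan. These were 4 of 7, where 1.93% of the genes with a test were called higher without carbon and 5.91% lower, and 0 of 7 lower. con-6 was 76.9-fold higher without carbon, with an adjusted p of 0.000639 and a mean on xylan of 10.05 FPKM in the authors' deposited table. By that authors' deposited table con-10 was 11.9-fold higher (29.9 FPKM on xylan, adjusted p = 1.02e-06), eas 10.5-fold (613 FPKM on xylan, adjusted p = 0.0179) and con-8 5.66-fold (115 FPKM on xylan, adjusted p = 0.00478). The other 3 genes also had folds above 1 in the authors' deposited table but were not called. They were con-13 (5.71-fold, adjusted p = 0.0633), ccg-1 (4.51-fold, adjusted p = 0.123) and fl (2.28-fold, adjusted p = 0.259). con-13 had a mean of 0.799 FPKM on xylan in the authors' deposited table, ccg-1 9169 FPKM and fl 9.79 FPKM.

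Between the strains without carbon, con-10 alone was called in the authors' deposited table. It was 3.73-fold higher in wild type than in A828V, where the authors' deposited mean was 110 FPKM (adjusted p = 0.000107). That made 1 of 7 higher in wild type, where 1.57% of the genes with a test were, and 0 of 7 lower, where 2.94% were. con-6, con-8, eas and fl pointed the other way, with 2.48-fold, 1.98-fold, 1.83-fold and 1.77-fold higher values in A828V in the authors' deposited table and adjusted p between 0.182 and 0.799. con-13 and ccg-1 differed 1.46-fold and 1.12-fold toward wild type there (adjusted p = 0.867 and 0.9996 in the authors' deposited table).

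**Figure D3:**
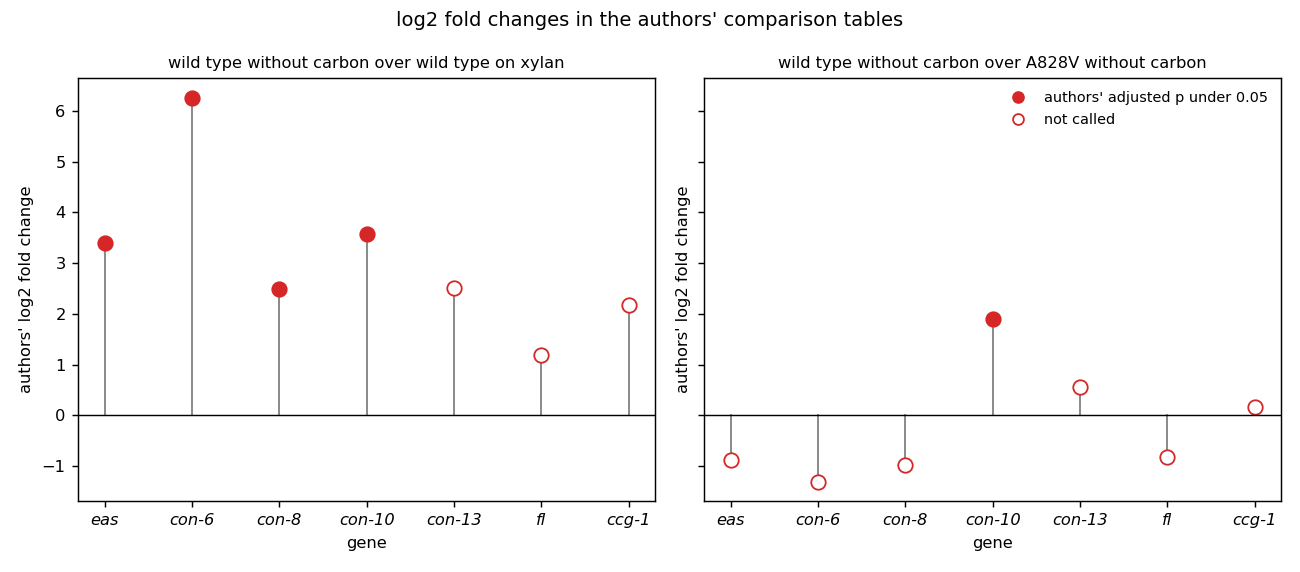
log2 fold changes of the 7 genes in the authors' 2 comparison tables, wild type without carbon over wild type on xylan (left) and over A828V without carbon (right); filled points have an authors' adjusted p under 0.05. On the left 4 points are filled, con-6 the highest at 6.27; on the right con-10 alone is filled, at 1.90.

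ccg-1 was also looked at as the source of the promoter in front of the A828V copy. In the A828V strain ccg-1 stood 22.7-fold higher without carbon than on sucrose. xlr-1, whose only intact copy there is the one behind the ccg-1 promoter, stood at 109, 129 and 115 CPM without carbon and at 199 CPM on sucrose. The difference of xlr-1 was not called, and its log2 fold change of -0.76 had a 95% interval of -1.91 to 0.39 (edgeR adjusted p = 0.326). The interval for ccg-1 in the same fit was 2.76 to 6.24, so the intervals did not overlap. xlr-1 CPM came to 0.655%, 1.03% and 0.665% of ccg-1 CPM in the starved libraries and to 29.2% on sucrose. In wild type, where xlr-1 is read from its own locus, it came to 2.09% to 4.83%. CPM takes no account of gene length, so these percentages do not compare the levels of the 2 genes. Per length, ccg-1 FPKM was 1352, 917 and 1220 times xlr-1 FPKM in the starved libraries. The ratio was 25.3 on sucrose and 139.8 to 425.7 in wild type. Reads of any ccg-1 sequence transcribed with the copy would be counted at ccg-1, and their part was not tested.

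**Figure D4:**
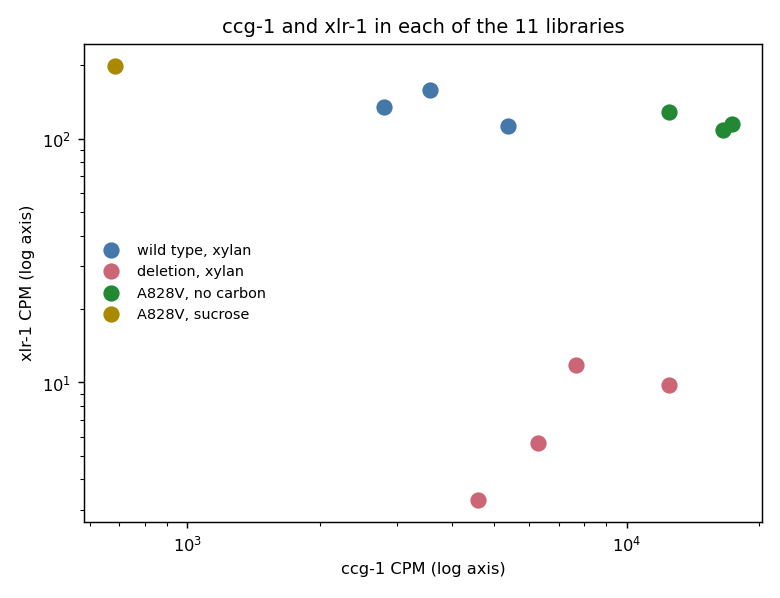
ccg-1 (x axis) and xlr-1 (y axis) in each of the 11 libraries, in CPM on log axes, by group. The A828V libraries span 683 to 17350 CPM of ccg-1 while xlr-1 stays between 109 and 199 CPM, and the 4 deletion libraries lie at the bottom, at 3.28 to 11.8 CPM of xlr-1.

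Across the 11 libraries the 7 genes fell into no single pattern. By Pearson's r the closest pairs in log2 CPM were con-6 and con-8 (Pearson r = 0.92, Spearman rho = 0.70), eas and con-8 (0.92 and 0.81) and con-10 and ccg-1 (0.89 and 0.75). By Spearman's rho they were con-6 and ccg-1 (0.91) and con-8 and ccg-1 (0.85). con-10 was least like fl (0.31 and 0.22), and the genomic neighbours con-10 and con-13 gave 0.58 and 0.66. These coefficients describe 11 libraries from 4 groups that share strain, medium and depth, and they are not a test. Of 6610 other genes with a mean of at least 10 CPM, the closest to eas was NCU07200, annotated as a metalloprotease (r = 0.99), with means of 3899 CPM in starved A828V and 282 CPM in wild type. Next to it came NCU07572 (r = 0.99), a hypothetical protein gene. con-6 was closest to NCU04930, a hypothetical protein gene, and to the indoleamine 2,3-dioxygenase gene NCU09184 (r = 0.99 each), the latter at 229 CPM in starved A828V and 0.561 CPM in wild type. con-8 was closest to an oligopeptide transporter gene, NCU07894, and to NCU05381 (r = 0.98 each). fl was closest to NCU00803, annotated as an MFS transporter (r = 0.97), and to NCU09241 (r = 0.96). con-10 was closest to NCU07273 and NCU08351 (r = 0.95 each), ccg-1 to NCU02567 (r = 0.99) and NCU10070 (r = 0.97), all 4 hypothetical protein genes. con-13 was closest to NCU02525 (r = 0.96) and the cation diffusion facilitator gene NCU09368 (r = 0.94).

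Other genes of the pathway were read from lists of known symbols. Of 21 regulators of conidiation, 5 were higher and 2 lower in starved A828V than in wild type on xylan, where 9.29% and 11.5% of all genes were. The 5 higher calls numbered 5 without any 1 library, while the 2 lower calls fell to 0 without A828V library 1 or 3 and to 1 without A828V library 2 or wild-type library 2 or 3. The median log2 change of the list was 0.41 against -0.01 for all genes. The higher ones included acon-3, needed for early conidiophore development, which rose from 2.13 ± 0.52 to 38.2 ± 29.2 CPM (SD, n = 3 each; log2 fold change 4.16, SE 0.81, edgeR adjusted p = 0.00876). The A828V libraries stood at 20.1, 71.9 and 22.5 CPM for acon-3 and the wild-type libraries at 1.69 to 2.70 CPM. The developmental regulator genes ada-6 (2.23) and ada-1 (1.84) and the aerial hypha gene sah-1 (1.77) rose too, by log2 fold change in the same edgeR fit. Against sucrose, 3 regulators were higher and 2 lower, where 8.39% and 10.4% of all genes were. Without any 1 starved library the counts were 2 and 0. Among the higher ones were ada-6 (3.77) and rco-3 (2.73), a sugar transporter homologue that restrains conidiation while glucose is present. sah-1 (1.49) was higher and the G protein alpha subunit gene gna-1 (-1.01) lower there, calls that edgeR lost without any 1 starved library (adjusted p 0.0536 to 0.115). Against the deletion strain, 6 regulators were higher and 0 lower by edgeR or limma, where edgeR called 4.90% of all genes higher. DESeq2 called 1 lower, where it called 10.1% of all genes lower. Of the 21, 9 had an unadjusted p under 0.05, against 28.1% of all genes. acon-3 (3.36), ada-6 (2.11), vad-5 (1.51) and ada-1 (1.35) changed most. The count of 6 fell to 2 without any 1 A828V library or deletion library 3. Without 1 library, edgeR lost acon-3 (A828V library 2 or deletion library 3, adjusted p 0.0568 to 0.0872), ada-6 (any A828V library or deletion library 3, 0.0564 to 0.0849) and ada-1 (any A828V library or deletion library 1 or 3, 0.0535 to 0.137). Between the deletion strain and wild type, 0 of 21 regulators were called by edgeR, DESeq2 or limma. Of these, 0 had an unadjusted p under 0.05, against 14.3% of all genes.

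The 10 other clock-controlled genes held few calls, and the edgeR calls were all toward lower values. In starved A828V against wild type, 0 were higher by edgeR or DESeq2 (1 by limma). By edgeR 3 were lower, where 11.5% of all genes were. Of the 10, 4 had an unadjusted p under 0.05, against 36.8% of all genes, and the median log2 change was -1.53. ccg-6 fell by 1.70 (SE 0.27, edgeR adjusted p = 0.00391), to 1557 ± 286 CPM from 5069 ± 568 CPM (SD, n = 3 each). ccg-7, the gene of the glycolytic enzyme glyceraldehyde-3-phosphate dehydrogenase, changed by -1.95 and the pheromone gene ccg-4 by -5.13, calls that edgeR lost without any 1 A828V library or wild-type library 1, and for ccg-7 also 3 (adjusted p 0.0752 to 0.187). ccg-4 stood at -1.58 without wild-type library 1, which held most of its reads in that group. Against sucrose, where 10.4% of all genes were lower, 2 were (ccg-7, -2.54, and ccg-6, -1.64). Against the deletion strain, where 3.80% were, 1 was (ccg-6, -1.35). In either comparison 0 were higher by edgeR, DESeq2 or limma. Of the lower calls, edgeR lost ccg-7 without any 1 starved library (adjusted p 0.0800 to 0.0972) and ccg-6 against the deletion strain without A828V library 2 or 3 (0.0727 to 0.0738). Unadjusted, 4 of 10 had a p under 0.05 against sucrose and 3 against the deletion strain, where 34.3% and 28.1% of all genes had. Between deletion and wild type ccg-4 alone was lower (-8.69), where 0.573% of all genes were. edgeR lost that call without any 1 deletion library (adjusted p 0.0703 to 0.104). For this pheromone gene, mating type and the loss of xlr-1 cannot be told apart, since the deletion libraries held no matA-1 read.

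Of 10 genes of spore pigment, storage and protection, 2 were higher and 1 lower in starved A828V against each of the other 3 groups. For a list of 10 these counts are near the share of all genes against sucrose (8.39% higher, 10.4% lower) and wild type (9.29% and 11.5%). Against the deletion strain, where 4.90% of all genes were higher and 3.80% lower, the counts lay above the share. With so few genes, a difference from these shares was not tested. al-3, an enzyme gene of carotenoid synthesis, rose by 2.92, 2.26 and 1.71 on the log2 scale against sucrose, wild type and deletion strain. The catalase-peroxidase gene cat-2 rose by 2.55, 2.30 and 1.39 and the catalase gene cat-3 changed by -3.59, -1.97 and -2.10 in the same order. edgeR calls of cat-2 against the deletion strain (adjusted p 0.0894 to 0.132), and of cat-3 against both xylan groups (0.0528 to 0.113), were lost without any 1 starved library, deletion library 3 or, for cat-3, wild-type library 1. Between deletion and wild type edgeR and limma called 0 of the 10, and DESeq2 called 1 higher, where it called 2.01% of all genes higher. Of the 10, 4 had an unadjusted p under 0.05, against 14.3% of all genes. Of 10 light and clock regulators, 3 were higher in starved A828V than in wild type, where 9.29% of all genes were, and 1 to 4 were without 1 library. They were the blue-light photoreceptor gene vvd (1.77) and the blue-light-induced genes bli-3 (1.99) and bli-4 (2.05). Against the deletion strain edgeR called 1 higher, bli-4 (1.80), where 4.90% of all genes were. edgeR calls were lost for vvd without A828V library 1 or 3 (adjusted p 0.0523 to 0.0553), for bli-3 without any 1 A828V library or wild-type library 2 or 3 (0.0666 to 0.0956) and for bli-4 against the deletion strain without any 1 A828V library or deletion library 3 (0.0652 to 0.0793). Against sucrose edgeR called 0 of the 10, and DESeq2 3 and limma 4 higher. These tools called 8.39%, 14.1% and 16.8% of all genes higher there. Of the 10, 4 had an unadjusted p under 0.05, against 34.3% of all genes. Between deletion and wild type none of these tools called one, and 2 had an unadjusted p under 0.05, against 14.3% of all genes.

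Genes of sexual tissue changed in both directions in the same libraries. Summed over 9 markers they stood at 464 to 1274 CPM in starved A828V, 98.9 to 266 CPM in wild type, 96.2 to 301 CPM in the deletion strain and 183 CPM on sucrose. In starved A828V against wild type 3 of 9 were higher and 2 lower, where 9.29% and 11.5% of all genes were. The perithecial protein gene app stood at 471, 1205 and 387 CPM in starved A828V and 1.303 to 17.5 CPM in wild type. It made up most of the sum in starved A828V. Without app, the summed markers stood lower in starved A828V than in any other library. poi-2 stood at 0 to 1.82 CPM in all libraries. Of the ascus development genes, asd-3 (1.93) was higher and asd-1 (-2.23) lower, as was ccg-4, by log2 fold change. Against the deletion strain 3 were higher and 1 lower, and against sucrose 3 and 1. Of all genes, 4.90% were higher and 3.80% lower against the deletion strain, and 8.39% and 10.4% against sucrose. Without any 1 starved library 1 of the 9 markers was higher against sucrose, and without 1 library 1 to 3 were higher against the deletion strain. Between deletion and wild type 2 of 9 were higher and 1 lower, where 0.0234% and 0.573% of all genes were. The pheromone gene mfa-1 (3.74) was higher and the pheromone gene ccg-4 lower. The deletion libraries held no matA-1 read, so mating type and the loss of xlr-1 cannot be told apart for these genes. A second marker called higher was lost in 6 of the 7 fits without 1 library. The summed level of 6 markers of growing hyphae was 9208 to 11330 CPM in starved A828V, 14480 to 24430 CPM in wild type, 8962 to 17380 CPM in the deletion strain and 27110 CPM on sucrose. The marker tef-1 made up most of that sum in every library and was not called in any comparison. Of these 6, his-3 alone was lower, against sucrose (-2.08, not called by limma) and wild type (-1.57), where 10.4% and 11.5% of all genes were. his-3 is the locus that holds the A828V copy. The A828V library on sucrose, which carries that copy too, held 412 CPM of his-3, against 225 to 407 CPM in wild type. A link between the copy and the his-3 reads was not tested. The part of these shifts in the conidiation results was not tested.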

How the data were processed

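Per the submitters' processing notes, the tools were TopHat2 2.04, HTSeq 0.6, Cufflinks 2.02 and Cuffdiff 2.02. The sources used here name neither settings nor build. The deposited count tables hold raw read counts per gene, 1 per library, and end in 5 entries that name no gene, 6.34% to 29.6% of all entries, left out of library sizes and tests. FPKM tables per library, and mean FPKM, a log2 fold score and an adjusted p-value per gene in the comparison tables, were made by the authors, per the file headers. In the latter, 14 columns, of single libraries or of a group with no sample here, were not used.

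Counts of all 11 libraries entered 1 edgeR 4.0.16 fit in R 4.3.3 (TMM, filterByExpr with a count minimum of 10, quasi-likelihood F-test, 2-sided, 7 residual degrees of freedom), with Benjamini-Hochberg adjustment over 8557 genes and calls at 0.05. The method was tested on simulated data. Alternatives used DESeq2 1.42.0 and limma 3.58.1 on log2(FPKM + 1). Whether libraries came from separate cultures is not stated, so p-values measure only sample-to-sample spread, possibly technical. No pair agreed within sampling noise (lowest chi-square per degree of freedom 19.5). Same-numbered wild-type and deletion libraries correlated in their deviations from the group means (r of 0.64, 0.26 and 0.25, against -0.56 to 0.25 for different numbers). The 7 genes and all lists were chosen with earlier results of these data known. Named genes were the 7, xlr-1, the 2 genes of highest r to each, and up to 4 called members per list with the largest change and at least 10 CPM. Symbols came from RefSeq (NC12), where 66 of 69 list entries matched.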

Additional observations from a re-analysis of the deposited data

How the results depend on the processing

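Directions of the 7 genes held in every alternative for the 3 comparisons with starved A828V. Between deletion and wild type 2 uncalled genes changed sign. eas (0.06) ranged from -0.46 to 1.88 without 1 library, and gave -0.10 in a fit, chosen after seeing the data, that dropped number 1 of either group. fl (-0.03) gave 0.11 with limma, 0.12 with a pseudocount of 0.1 and 0.11 unfiltered, 0.16 with the replicate block, and -0.24 to 0.08 without 1 library. The cause was not tested. The number of genes called higher against sucrose was 7 with the compared groups alone, where 31.6% of all genes were called higher. It was 3 to 4 without 1 library, where 3.56% to 4.54% of all genes were. Against wild type it was 3 to 5 without 1 library (3 without A828V library 3), where 3.12% to 6.2% of all genes were. Against the deletion strain it was 3 to 5 without 1 library, where 1.63% to 6.68% of all genes were. Between deletion and wild type it was 0 throughout, also with the replicate block. Against wild type the block gave 7, where it called 11.5% of all genes higher. Against the deletion strain it gave 3 (eas lost, adjusted p = 0.0661, edgeR). There it called 1.45% of all genes higher, against 4.90% in the main fit. But A828V libraries share only a number with the others, and deviations of same-numbered libraries correlated at -0.23 to -0.03. The sucrose library has no number, so no block was fitted there. limma on FPKM shifted the median gene by 0.44 against sucrose, 0.29 against wild type and 0.15 against the deletion strain, and raised the share of calls that were higher from 44.5% to 76.3%, 44.7% to 73.7% and 56.3% to 80.0%. Depth limited con-13, at 0 to 57 counts.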
